A study of Homo sapiens with 14 samples.

Results

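Histone deacetylase genes of class I (HDAC1, HDAC2, HDAC3 and HDAC8), class IIa (HDAC4, HDAC5, HDAC7 and HDAC9), class IIb (HDAC6) and class IV (HDAC11) were followed through all groups of the series. The 10 genes were taken by name from a list on which HDAC10, the other class IIb gene, did not stand. They were 10 of the 24638 genes listed in every kind of table, and all 10 passed the filters on low counts. The cells were IMR90, primary human fetal lung fibroblasts, and poly(A)-selected RNA was sequenced. I79 young and I10 young were proliferating cells of 2 isolates, and I79 old and I10 old were the same isolates passaged into replicative senescence, the permanent arrest that follows long culture. I79 ICM cells had received inflachromene, a compound known to bind HMGB1 and HMGB2, both chromatin proteins. HMGB2 KD cells had been depleted of HMGB2 by siRNA and were set against WT cells, for which the labels give neither the isolate nor a control siRNA. Cultured IMR90 cells of fetal origin stand for all groups, and no group holds tissue.

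Histone deacetylases remove acetyl groups from lysines of histones and of other proteins, and loss of histone acetylation is tied to quieter chromatin. Class I enzymes are mostly nuclear and form the catalytic core of corepressor complexes (SIN3, NuRD and CoREST around HDAC1 and HDAC2, NCOR and SMRT around HDAC3). Class IIa proteins have little enzymatic activity of their own, bind MEF2 transcription factors and move between nucleus and cytoplasm under the control of kinases. HDAC6 acts mainly on cytoplasmic proteins such as tubulin, and HDAC11 forms a class of its own.

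The WT and HMGB2 KD tables gave raw counts per gene for 2 libraries each, with 33561766 to 41168932 counts. The old and young groups had 1 table each of estimated counts and TPM (a level per transcript length, scaled to a fixed sum in each table) per transcript, with 14991385 to 20632959 estimated counts. The 2 ICM libraries gave 13290131 and 10971132 reads per gene and transcript region. Since the 3 kinds of table were counted in different ways, differences were tested within a kind only. All 10 fibroblast markers examined (COL1A1, COL1A2, COL3A1, DCN, LUM, PDGFRA, PDGFRB, THY1, VIM and FAP) stood above 1 CPM (reads scaled to a fixed library total) in every table, while 7 or 8 of 8 epithelial markers stood under 1 CPM. The 12 proliferation markers summed to 1066 and 1178 CPM in the young tables, 218 and 332 CPM in the old tables, 316 to 332 CPM in the 4 WT and HMGB2 KD libraries, and 86.0 and 85.2 CPM in ICM, so the WT libraries stood near the old tables in this sum. HMGB2, the targeted gene, had 929 and 1021 counts with the WT label and 118 and 145 counts with the knockdown label.

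Of the 10 deacetylases, HDAC9 rose most with senescence, and it was also the one that rose after HMGB2 depletion. HDAC5 rose and HDAC4 fell in old cells. The 4 class I genes, HDAC7, HDAC6 and HDAC11 did not pass the test in either comparison. For HDAC9 and HDAC7, the transcripts used are shown first, since the sequences they hold differ between forms.

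HDAC9 (chromosome 7, 18126572 to 19042039 on the plus strand of GRCh37) had 29 annotated transcripts in the old and young tables, of which 9 had reads and 3 reached 1 TPM. Those 3, ENST00000406072 with 577 codons, ENST00000456174 with 562 and ENST00000405010 with 590, end between 18706523 and 18708466 and code for short forms of the protein. The short forms keep the part that binds MEF2 and lack the deacetylase domain. The long transcript ENST00000406451, with 1066 codons, runs on to 19042039 and holds the domain. The forms part at the end of an exon that starts at 18705836. In the long form this exon is spliced after base 18706099 to an exon at 18767203, while the short forms read on through the splice site for 48 more coding bases (16 codons) and a stop codon. The bases of that end are shown because they are in the coding sequence of the short forms and absent from that of the long form. Capitals mark the part past the splice site, stop codon included, and lower case the last 30 bases that both share.
HDAC9 coding end, chr7:18706070-18706150, plus strand: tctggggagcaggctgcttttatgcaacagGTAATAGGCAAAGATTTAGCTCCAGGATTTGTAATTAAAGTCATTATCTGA

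HDAC7 (chromosome 12, 48176505 to 48226915, minus strand) had 30 transcripts, of which 22 had reads. Its leading transcripts, ENST00000080059 with 991 codons and ENST00000354334 with 954, differ by 1 coding exon of 111 bases (37 codons), which the first holds and the second skips. The second transcript was named after its values were seen. The exon is shown because its use differed between old and young tables while the gene's level did not pass the test.
HDAC7 exon, chr12:48189689-48189799, minus strand: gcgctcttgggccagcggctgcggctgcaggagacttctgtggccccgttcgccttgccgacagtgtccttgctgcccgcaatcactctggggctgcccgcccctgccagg

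The first question was how deacetylase levels differ between proliferating and senescent cells. HDAC9 had 8 estimated counts in I79 young and 20 in I10 young, against 364 in I79 old and 237 in I10 old. As TMM-scaled CPM, where the total is corrected for composition, this was 0.51 and 1.04 in the young tables, and 19.8 and 13.1 in the old tables. Both old values lay far above both young values. In the fit over both isolates HDAC9 rose 20.0-fold, with a log2 change of 4.32 (SE 0.40) and an adjusted p of 0.0054 (edgeR over 15135 genes, quasi-likelihood test). Within I79 the log2 ratio to library totals was 5.10 (95% counting interval 4.11 to 6.33) and within I10 it was 3.39 (2.73 to 4.13). These intervals cover counting error only and overlap, and the difference between isolates was not tested. With old and young cells in bulk, a change in the number of expressing cells and a change in RNA per cell cannot be told apart. Of the 12 proliferation markers, the 11 that could be tested were lower in the old tables, 9 of them past the thresholds, while CCNA2 was listed at 0 in both young tables and at 7.11 CPM in I79 old. Markers of other cell types also moved. The 6 immune markers summed to 21.8 and 23.6 CPM in the young tables and 158 and 85.0 in the old ones, nearly all of it CD68, a lysosomal protein (called higher), while PTPRC read 0.22 CPM or less and CD3E was at 0 in all 4. The endothelial markers summed to 95.9 and 66.3 CPM young and 221 and 167 old, mostly the receptor TEK (called higher), with CDH5 at 0 throughout. Of 5 muscle markers MYH11, a smooth muscle myosin, was called lower, and their sum was 501 and 380 CPM young and 288 and 489 old. The part of all these markers in the deacetylase results was not tested.

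In the old tables the short coding forms took most HDAC9 reads. They held 300 of 364 estimated counts in I79 old, or 82.4% (exact 95% interval 78.1% to 86.2%), and 195 of 237 in I10 old, or 82.5% (76.8% to 86.9%). The long form held 63.9 counts in I79 old and 36.4 in I10 old, 17.6% and 15.4%. In the young tables the short forms had 1.39 of 8 counts (exact 95% interval 0.32% to 52.7%) and 7.68 of 20 (19.1% to 63.9%), so little is known of their share there. Since the transcripts share most of their exons, the division of reads among them is an estimate whose own error is not in these intervals.

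ENST00000406072, which lacks a coding exon that both other short forms hold, had 0.04 TPM young and 3.79 TPM old for I79, and 0.08 and 1.80 for I10. ENST00000456174, which starts further downstream, was at 0 in both young tables and at 2.72 and 0.97 TPM in I79 old and I10 old. ENST00000405010 was also at 0 in both young tables, and stood at 0.84 TPM in I79 old and 1.37 in I10 old. The order of these forms differed between the isolates, with ENST00000456174 above ENST00000405010 in I79 and below it in I10. The long form ENST00000406451 stood at 0.04 and 0.10 TPM in the young tables and at 0.54 and 0.30 TPM in the old tables of I79 and I10. All 4 were higher in the old table of both isolates. The 3 short forms were named for reaching 1 TPM in at least 1 table. The whole gene held 0.50 and 0.52 TPM in the young tables, so only an old table could pass. The rule thus favoured forms that are higher in old tables. ENST00000425071, not named by this rule, went from 0.34 to 0 TPM in I79 and from 0 to 0.25 in I10, on 1 count each. ENST00000417496, a short form with 588 codons also left out, had 4.06 counts (0.15 TPM) in I10 young and 0 in I10 old and both I79 tables. ENST00000524023, a short form with 513 codons left out too, had 7.98 counts (0.31 TPM) in I10 old and 0 in I10 young and both I79 tables.

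**Figure D1:**
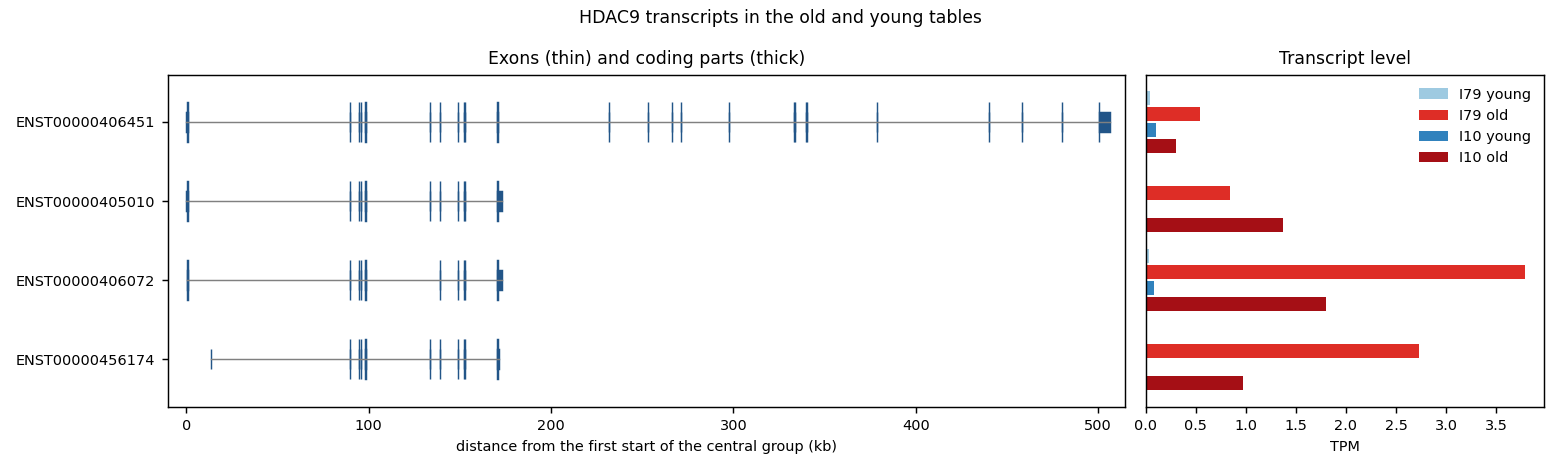
Exon models of 4 HDAC9 transcripts, drawn to scale by distance in kb from the first start of the central group of starts (left), and the TPM of each transcript in the 4 old and young tables on a linear scale (right). The 3 short forms end near the same point, the long form runs on past it, and all 4 transcripts are higher in the old tables, up to 3.79 TPM for ENST00000406072. The short forms were named for reaching 1 TPM in at least 1 table, which favours forms higher in old tables.

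Fitted transcript by transcript, edgeR called 0 of 46074 transcripts (0%), while 6911 (15.0%) had an unadjusted p under 0.05. DESeq2 called 3783 (8.21%). Among 49 tested transcripts of the 10 genes, DESeq2 called 10, which included the 3 short HDAC9 forms but not the long one (log2 fold change 2.71, adjusted p 0.11). The call for transcripts therefore rested on the tool. ENST00000456174 and ENST00000405010 had 0 counts in both young tables, so they passed the filter on low counts only through the old tables. The short forms were also named by a rule that favours old tables. Their calls were thus not read as support for a rise particular to short forms.

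Reads of HDAC9 fell on transcripts that start in 1 stretch of the gene. The 15 annotated transcripts that start between 18535333 and 18536120 held 292 of 364 counts in I79 old (80.1%) and 197 of 237 in I10 old (83.3%). A group of 3 transcripts starting between 18542231 and 18548936 held 19.9% and 14.5%. The 3 transcripts that start between 18126572 and 18191398, at the annotated 5′ end, and the 5 that start between 18329715 and 18330073 held 0 counts in I79 old, which allows up to 3, and 1.00 count in I10 old. The 250 bases before the first start of the main group are shown because most reads of the gene were assigned downstream of them, although no transcript with reads starts at that first base (ENST00000406451 and ENST00000405010 start at 18535369, ENST00000406072 at 18535790). They were searched on both strands for MEF2 motifs, the CCAAT box, the cyclic AMP element TGACGTCA and the TATA box TATAAA. The letters TGANTCA and TTTNNCGC, where N is any base, were also searched. They are looser than the AP-1 and E2F motifs, so a match need not be such a motif. Capitals mark the matches, which do not overlap one another.
HDAC9 window, chr7:18535083-18535332, plus strand: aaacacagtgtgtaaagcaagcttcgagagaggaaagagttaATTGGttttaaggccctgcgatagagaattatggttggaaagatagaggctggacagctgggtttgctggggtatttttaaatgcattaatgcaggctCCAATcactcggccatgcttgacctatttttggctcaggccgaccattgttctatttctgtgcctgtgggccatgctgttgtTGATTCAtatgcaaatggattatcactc

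The window held CCAAT 2 times, once on the minus strand, where it reads ATTGG, and TGANTCA once. Over the 15163 windows of the same length before the leading transcript of each gene with a mean of at least 1 TPM, 33.1% held CCAAT and 4.37% held TGANTCA. MEF2 motifs stood in 2.03% of those windows, TTTNNCGC in 7.89%, TGACGTCA in 2.43% and TATAAA in 7.79%, and none of these letters were found in the HDAC9 window. Its GC content was 44.0% with 4 CpG pairs, against medians of 63.2% and 19 over all windows. Placed like those, before the leading transcript ENST00000406072, the HDAC9 window held none of the motifs, with 49.6% GC and 6 CpG pairs, so the matches printed above depend on the start chosen. The window before the leading HDAC5 transcript held 79.6% GC and 35 CpG pairs and that of HDAC4 68.8% and 26, with CCAAT once in HDAC4 and no other match in either.

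HDAC5 (chromosome 17, 42154114 to 42201070, minus strand), a class IIa repressor of MEF2 targets, read 20.5 CPM young and 81.0 CPM old for I79, against 23.8 and 85.5 for I10. Both old tables lay above both young tables, and the isolates lay close together. HDAC5 rose 3.76-fold, a log2 change of 1.91 (SE 0.11, adjusted p 0.0036 by edgeR). Its leading transcript ENST00000586802, with 1122 codons, held 216 estimated counts young and 1111 old for I79, and 360 and 1229 for I10. The gene's TPM was 17.3 young and 39.6 old for I79, and 14.5 and 41.4 for I10, and retained-intron transcripts took 15.5% of its counts in I79 young and 3.26% to 4.42% in the other tables. Part of HDAC5 overlaps the coding gene G6PC3, and whether counting used strand is not stated.

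HDAC4 (chromosome 2, 239969864 to 240323348, minus strand), a class IIa regulator of cartilage and muscle genes, read 42.4 CPM young and 21.2 CPM old for I79, against 40.4 and 22.6 for I10. The groups did not overlap. HDAC4 fell, with a log2 change of -0.92 ± 0.12 (SE) and an adjusted p of 0.0093 in edgeR. It was the member closest to the threshold of 0.01 on its inner side. Its leading transcript ENST00000345617, with 1084 codons, held 521 counts young and 166 old for I79, and 504 and 215 for I10. The next transcript, ENST00000543185, with 1089 codons, named after its values were seen, held 88.1 young and 210 old for I79, and 232 and 182 for I10. The fall of the gene was thus carried by ENST00000345617 in these estimates, while the other form moved in opposite directions in the isolates.

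HDAC7, the class IIa member known from endothelial cells and thymocytes, stood at 91.0 and 85.3 CPM in I79 young and I10 young, and at 80.9 and 87.9 CPM in I79 old and I10 old. The groups overlapped (log2 fold change -0.06, SE 0.11, adjusted p 0.68 by edgeR). The share of transcripts with the exon printed above differed between the tables. Transcripts that hold it took 560 of 1183 counts in I79 young and 783 of 1182 in I79 old, where counts were limited to transcripts that either hold the exon or join its neighbours. These are 47.4% (exact 95% interval 44.5% to 50.2%) and 66.3% (63.5% to 68.9%). In I10 the share was 43.3% (40.7% to 45.9%) in the young table and 69.4% (66.9% to 71.9%) in the old table. The intervals of old and young did not overlap in either isolate, but they cover counting error only. Since the transcripts share most of their exons, the division of reads among them is an estimate whose own error is not included. The exon was shown because of this difference, and how many exons of other genes differ as much is not given here. The transcript without the exon, ENST00000354334, held 582 counts young and 385 old for I79, and 810 and 406 for I10, and DESeq2 called it lower, while edgeR did not (log2 fold change -0.89 in both). With 1 table per group the share itself had no replicate test. HDAC7 overlaps the coding gene SLC48A1.

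**Figure D2:**
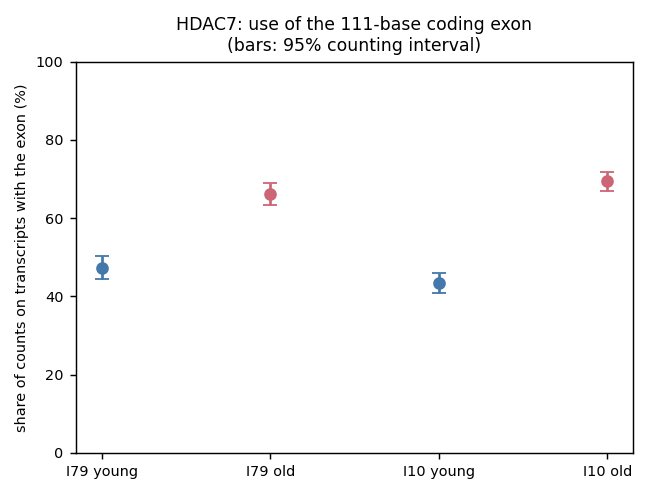
Share of HDAC7 estimated counts on transcripts that hold the 111-base coding exon, among transcripts that hold or skip it, in the 4 old and young tables. Bars are exact 95% counting intervals, which leave out the error of dividing reads among transcripts. The young tables lie at 47.4% and 43.3% and the old tables at 66.3% and 69.4%.

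None of the class I genes passed the test. HDAC2 (chromosome 6, 114254192 to 114332472, minus strand) stood at 159 and 164 CPM in I79 young and I10 young, and at 111 and 107 CPM in the old tables. Its groups did not overlap and its log2 fold change was -0.57 (SE 0.10, adjusted p 0.018 by edgeR), just outside both thresholds. HDAC1 (chromosome 1, 32757684 to 32799236, plus strand), its close paralogue, stood at 120 and 121 CPM in the young tables and 95.2 and 98.7 in the old ones. It also did not pass (log2 fold change -0.31, SE 0.10, adjusted p 0.068 by edgeR). HDAC8 (chromosome X, 71549366 to 71792951, minus strand), which acts on cohesin, stood at 18.2 and 20.3 CPM in the young tables and 13.2 and 15.4 in the old ones (log2 fold change -0.43, SE 0.14, adjusted p 0.075 by edgeR), and it overlaps an unnamed coding gene, ENSG00000285547. HDAC3 (chromosome 5, 141000443 to 141016416, minus strand), the catalytic subunit of NCOR and SMRT complexes, stood at 59.0 and 58.9 CPM in I79 young and I10 young, and at 57.9 and 67.8 in the old tables, so its groups overlapped. Its log2 fold change was 0.09 (SE 0.11, adjusted p 0.57 by edgeR).

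HDAC6 (chromosome X, 48659784 to 48683392, plus strand) stood at 23.7 and 26.8 CPM in the young tables and at 25.9 and 29.9 in the old ones, with groups that overlapped (log2 fold change 0.14, SE 0.12, adjusted p 0.40 by edgeR). On the TPM scale it went the other way, with 22.0 TPM young and 14.4 old for I79, and 20.8 and 13.1 for I10. Its leading transcript ENST00000643374 had 0 counts in I79 young and 320 in I10 young, while ENST00000334136, with the same 1215 codons, had 164 and 16.6, so single HDAC6 transcripts were not read further. HDAC11 (chromosome 3, 13521224 to 13547924, plus strand) stood at 11.8 and 10.6 CPM in the young tables and at 17.3 and 15.3 in the old ones. Its groups did not overlap, and it did not pass the test (log2 fold change 0.54, SE 0.15, adjusted p 0.051 by edgeR).

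In all, 3 of 10 members passed the thresholds (adjusted p under 0.01 and a log2 change over 0.6 in size), against 9.35% of all genes tested. 2 rose (5.66% of all genes) and 1 fell (3.69%), and the 3 belong to class IIa. Groups did not overlap for 7 of 10 members, and this was so for 73.9% of all genes, so that count is near the background. Within an isolate, where there was no test, 5 of 10 members moved by more than 0.6 on the log2 scale against library totals in I79 and 5 in I10, against 42.8% and 42.1% of genes. For old against young, p-values rest on how far the change differs between the 2 isolates, with 1 table per group. They also rest on the spread of all genes, towards which edgeR draws that of each gene. With 1 residual degree of freedom this borrowed spread weighs heavily. Part of the difference between isolates may be technical. For HMGB2 KD against WT, p-values measure the spread between libraries, also drawn towards that of all genes. The labels do not say that replicates were separate cultures, so that spread may be technical too.

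**Figure D3:**
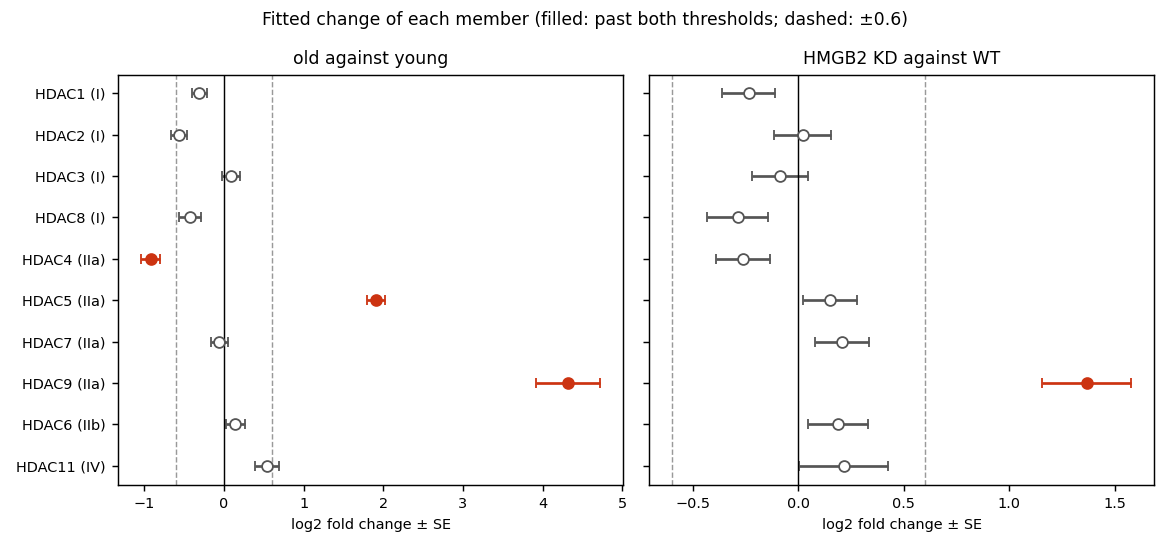
Fitted log2 fold changes of the 10 members with SE (taken from the F statistic of the test), for old against young (left) and HMGB2 KD against WT (right), on axes of different range. Filled points passed both thresholds: HDAC9 (4.32), HDAC5 (1.91) and HDAC4 (-0.92) on the left, and HDAC9 (1.37) on the right.

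Levels of different genes were compared per length, on the TPM scale. In the young tables HDAC2 led with 160 TPM in I79 and 174 in I10, followed by HDAC1 (106 and 109), HDAC3 (58.5 and 61.9) and HDAC7 (45.1 and 41.4). HDAC6 (22.0 and 20.8) and HDAC8 (18.3 and 25.3) came next and did not differ beyond the spread between isolates. HDAC5 (17.3 and 14.5), HDAC4 (12.2 and 11.7) and HDAC11 (10.1 in each) followed, and HDAC9 was last with 0.50 and 0.52 TPM. In the old tables HDAC2 stood at 105 and 97.2 TPM and HDAC1 at 76.6 and 77.0, and HDAC3 stood at 52.1 and 57.7. HDAC5 had moved up to 39.6 and 41.4 TPM and overlapped with HDAC7 at 35.6 and 40.3. HDAC8, HDAC6 and HDAC11 overlapped between 11.4 and 16.5 TPM. HDAC9 stood at 7.90 and 5.15 TPM, above HDAC4 at 3.84 and 4.15 TPM in both isolates, where in the young tables HDAC4 stood above HDAC9. Class I genes made up 76.2% and 78.9% of the summed TPM of the 10 members in the young tables, and 68.1% and 68.3% in the old ones. Class IIa genes went from 16.7% and 14.5% to 23.9% and 25.0%.

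**Figure D4:**
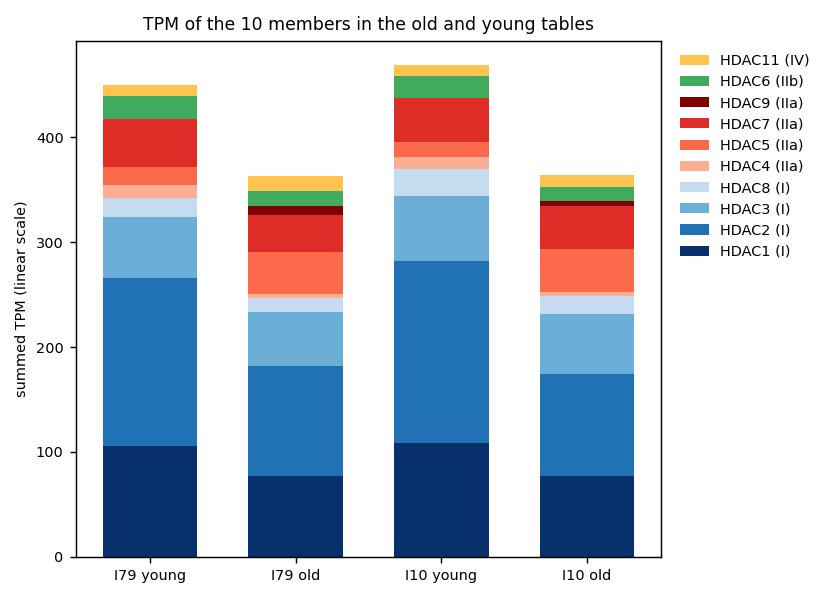
Stacked TPM of the 10 members in the 4 old and young tables, on a linear scale starting at 0, with class I in blue, class IIa in red, HDAC6 in green and HDAC11 in yellow. HDAC2 and HDAC1 are the tallest parts of each bar, and the red part holds 16.7% and 14.5% of the young bars and 23.9% and 25.0% of the old bars.

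The knockdown libraries address which deacetylases respond when HMGB2 is depleted. HDAC9 had 121 and 122 counts in the WT libraries, against 302 and 371 after the knockdown. As CPM this was 3.53 and 3.27 against 8.25 and 9.30, with no overlap. HDAC9 rose 2.58-fold (log2 fold change 1.37, SE 0.21, adjusted p 0.00097 by edgeR over 15338 genes). Without the second HMGB2 KD library its adjusted p was 0.011, above the threshold of 0.01, at a log2 fold change of 1.28. The WT and HMGB2 KD tables are per gene, so the forms of HDAC9 could not be parted there. The 12 proliferation markers had 0 calls in this comparison by edgeR or DESeq2 (1 had an unadjusted p under 0.05 in edgeR), with a median log2 change of 0.01. Of the fibroblast markers 3 were called higher and 1 lower, and ACTG2, a smooth muscle actin, was called higher, at 74.9 and 146 CPM against 294 and 355. Their part in the HDAC9 result was not tested.

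The other class IIa genes did not pass the test. HDAC5 read 108 and 110 CPM in the WT libraries against 113 and 128 CPM after the knockdown (log2 fold change 0.15, SE 0.13, adjusted p 0.53 by edgeR). HDAC4 read 54.3 and 55.9 CPM against 48.7 and 43.1 CPM (-0.26, SE 0.13, adjusted p 0.23 by edgeR). HDAC7 read 101 and 105 CPM against 111 and 127 CPM (0.21, SE 0.13, adjusted p 0.37 by edgeR). These 3 did not overlap between groups.

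Among class I genes, HDAC1 read 132 and 133 CPM in the WT libraries against 117 and 108 CPM after the knockdown, and HDAC8 read 22.5 and 20.8 against 16.5 and 18.9 CPM, again without overlap. Their log2 fold changes were -0.24 (SE 0.13) and -0.29 (SE 0.14), at adjusted p values of 0.28 and 0.25 by edgeR. HDAC2, at 187 and 182 against 202 and 172 CPM, overlapped, as did HDAC3, at 53.5 and 52.2 against 54.0 and 45.3 CPM. HDAC6 read 21.2 and 21.5 against 22.5 and 26.1 CPM (0.19, SE 0.14, adjusted p 0.47 by edgeR). HDAC11, at 7.54 and 7.90 against 7.13 and 10.8 CPM, overlapped. The second HMGB2 KD library was the lower of its pair for HDAC1, HDAC2, HDAC3 and HDAC4 and the higher for the other 6 genes. In all, 1 of 10 members was called, higher, against 5.20% of all genes (2.86% higher and 2.34% lower). Groups did not overlap for 7 of 10 members and for 53.8% of all genes.

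**Figure D5:**
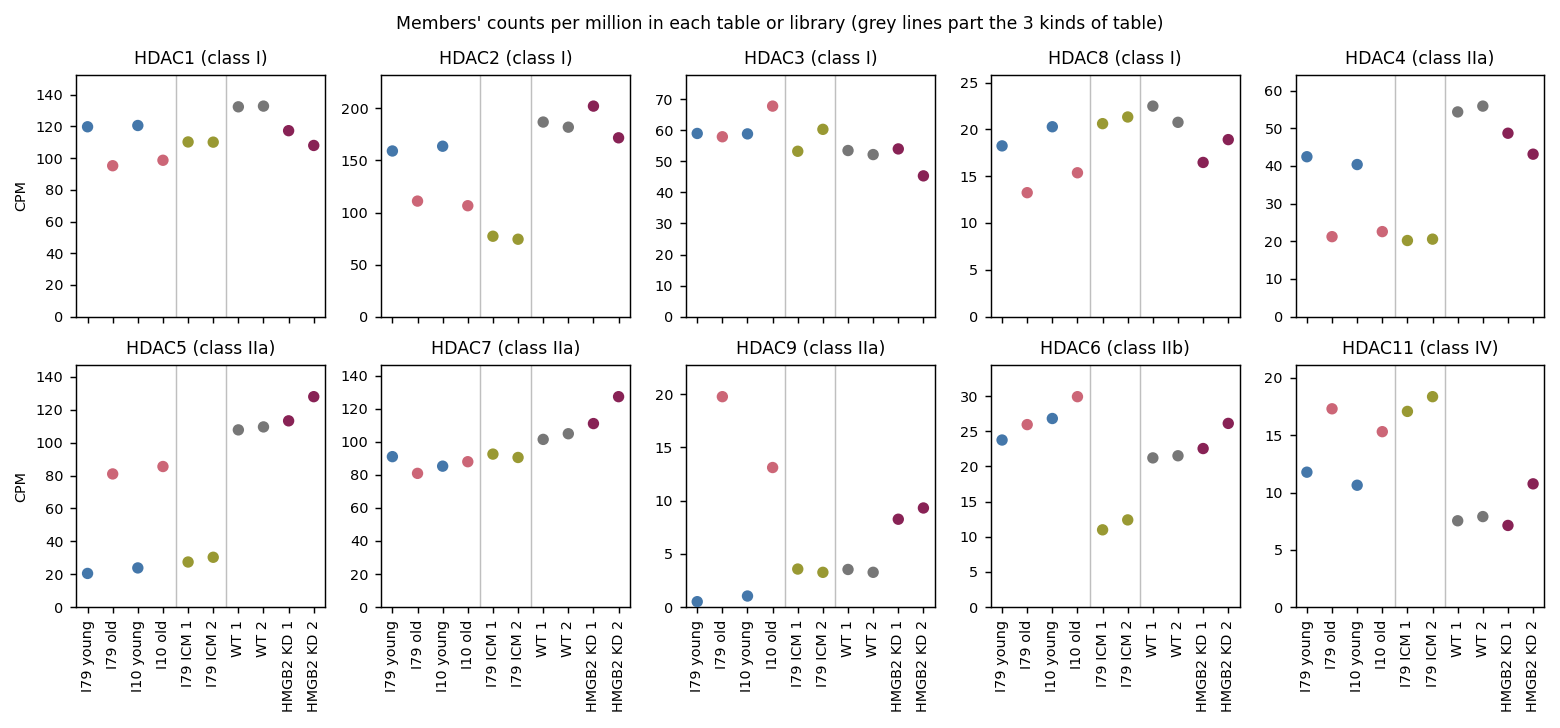
CPM of each member in the 4 old and young tables (blue young, red old), the 2 ICM libraries (olive), and the WT (grey) and HMGB2 KD (purple) libraries, 1 point per table or library, each panel on its own linear axis from 0. Grey lines part the 3 kinds of table, between which CPM also holds differences in counting. HDAC9 reaches 19.8 and 13.1 CPM in the old tables, and 8.25 and 9.30 CPM after the knockdown.

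Levels per kb of annotated exon placed HDAC1 first in WT (34.1 and 34.3, as reads per kb scaled to the plain library total) and HDAC9 last (0.21 and 0.19). This scale divides by all annotated exon bases, 15333 for HDAC2 and 22888 for HDAC8 against 3966 for HDAC1, so it places genes with long or rarely used exons low. HDAC5 stood second in WT at 14.4 and 14.7, HDAC2 at 12.4 and 12.2, HDAC3 at 11.8 and 11.6 and HDAC7 at 10.4 and 10.8. HDAC6 (1.49 and 1.52) and HDAC11 (1.47 and 1.55) overlapped. With the length of the longest transcript in place of all exons, HDAC3 (28 and 27) stood above HDAC5 (20.6 and 21.1), and HDAC6 (3.73 and 3.79) stood above HDAC11 (2.67 and 2.82). The order below HDAC1 therefore depended on the length used.

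ICM libraries were set against I79 young without a test, since the tables were counted differently. HDAC9 had 47.5 and 35.8 reads in the 2 libraries, or 3.57 and 3.27 CPM, against 0.51 CPM in I79 young, a log2 ratio of 2.43 over shared genes. For WT, which is not labelled as treated with ICM, the same ratio was 2.49, and the ratio of ICM to WT was -0.06. For HDAC9 the ICM libraries were thus no further from I79 young than WT was. HDAC5, called higher in old cells, stood at 27.4 and 30.3 CPM in ICM, a log2 ratio to I79 young of 0.35, where WT gave 2.33. HDAC2 stood at 77.2 and 74.3 CPM (ratio -1.21, WT 0.14), HDAC4 at 20.2 and 20.6 CPM (ratio -1.20, WT 0.30) and HDAC6 at 11 and 12 CPM (ratio -1.16, WT -0.22). These 3 lay below both I79 young and WT. HDAC1, HDAC3, HDAC7 and HDAC8 had ratios between -0.26 and 0.06, and HDAC11 had 0.44. In all, 4 of 10 members lay past 0.6, 1 higher and 3 lower, against 60.3% of 14749 shared genes. WT to I79 young placed 44.8% of genes past 0.6 and 3 of 10 members.

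The ICM tables give reads by region. Coding sequence held 46.3% and 53.0% of HDAC9 reads and the 3′ untranslated region 51.6% and 44.2%, against 61.1% and 61.9% coding over all genes. HDAC4 (40.8% and 45.5% coding) and HDAC11 (36.6% and 38.2%) also lay below that share, while HDAC5 (90.4% in each) and HDAC6 (94.5% and 90.4%) lay above it. HDAC2 had 1.75% and 1.76% of its reads in the 3′ untranslated region. Only the coding reads of ICM were then set against all reads of I79 young, so these ratios also hold each gene's coding share in ICM. The log2 ratios were -0.83 for HDAC2, -1.72 for HDAC4, -0.59 for HDAC6, 0.89 for HDAC5 and 2.11 for HDAC9. The sign turned for HDAC11 (0.44 with all reads, -0.28 with coding reads), HDAC1 (-0.26 and 0.07), HDAC3 (-0.20 and 0.06) and HDAC7 (-0.14 and 0.03), so no direction was read for these 4. Per kb of coding sequence the ICM order was HDAC1 (96.7 and 97.8, as coding reads per kb scaled to the total of coding reads), HDAC2 (69.1 and 66.8), HDAC3 (51.3 and 55.8) and HDAC7 (34.5 and 33.5), and HDAC9 was last (0.85 and 0.87).

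Partners of the deacetylases were read against the same thresholds. Of 37 scaffolds and subunits of HDAC complexes, edgeR called 3 lower and none higher in old cells, near the 9.35% of all genes, and DESeq2 called 5, with a median edgeR log2 change of -0.15 against -0.01 over all genes. RCOR2, a CoREST scaffold, stood at 10.2 and 8.60 CPM in I79 young and I10 young and at 3.04 and 1.60 in the old tables (log2 fold change -2.06, SE 0.27, adjusted p 0.0093 by edgeR). MTA2, a NuRD subunit, fell with a log2 change of -1.04, from 125 and 121 to 57.1 and 62.6 CPM. KDM1A, the histone demethylase of CoREST, fell with a change of -0.97, from 141 and 136 to 65.9 and 75.1 CPM. In HMGB2 KD 0 of 36 tested members of this list were called by edgeR and 0 by DESeq2, while 4 had an unadjusted p under 0.05. Of class IIa partners and kinases, 1 of 18 passed in old cells (2 by DESeq2), CAMK2D, a calcium-dependent kinase, at 98.2 and 106 CPM young and 187 and 198 CPM old (log2 fold change 0.91, SE 0.10, adjusted p 0.0066 by edgeR). In HMGB2 KD 1 of 17 passed, SIK2, a kinase that phosphorylates class IIa proteins, at 140 and 151 CPM in the WT libraries against 98.7 and 83.1 CPM after the knockdown (log2 fold change -0.68, SE 0.13, adjusted p 0.0051 by edgeR). With 9.35% of all genes called in old cells and 5.20% in HMGB2 KD, 1 call of this list in each comparison is not above the background to be seen. None of the histone acetyltransferases (10 tested in old cells, 9 in HMGB2 KD), 7 sirtuins or 5 bromodomain readers was called by edgeR or DESeq2 in either comparison. At an unadjusted p under 0.05 in edgeR there were 3 acetyltransferases, 2 sirtuins and 2 bromodomain readers in old cells, and 2, 0 and 1 in HMGB2 KD. In old cells 7 of 10 members and 16 of 37 complex subunits were also under it. The share of all genes under that cut is not given here, so these counts were not read as change.

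Among 12753 genes tested in both fits, those closest to HDAC9 over its 3 log2 changes (4.85 in I79, 3.27 in I10 and 1.29 in HMGB2 KD, with a prior count of 2) were INHBB, C7, MAP3K7CL, ABCA3 and SERPINB7. Their Euclidean distances were 0.50, 0.51, 0.72, 0.85 and 0.86, and the median distance of all genes was 6.31. INHBB, a subunit of activins and inhibins, had changes of 5.13, 2.95 and 1.56, and C7, a complement component, 4.68, 2.88 and 1.00. This is a description over 3 values a gene.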

How the data were processed

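Groups came from the sample titles. For WT and HMGB2 KD the deposited values are raw counts, 1 per gene and library (STAR 2.6.0c on hg19 per the labels and methods, strand setting not given in the sources used here). The authors deposited estimated counts and TPM per transcript for the old and young groups, and, for ICM, estimated counts by gene and region, fractional where reads were shared. The titles list 2 replicates for each old and young group but each had 1 table, which was treated as a pooled value with no SD or n. Summary rows held 16.9% to 18.0% of the WT and HMGB2 KD totals and were left out.

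Transcripts were summed per gene with GENCODE v44 lifted to GRCh37 (97.7% of IDs matched) and rounded. Tests used edgeR 4.0.16 in R 4.3.3 (quasi-likelihood test, TMM, filterByExpr), with Benjamini-Hochberg adjustment over all features and calls as in the study's methods (adjusted p under 0.01, log2 fold change past 0.6 in either direction). HMGB2 KD was compared with WT without covariate. Old was compared with young with isolate as covariate, which left 1 residual degree of freedom. The SE given with an edgeR change is the size of the log2 fold change divided by the square root of the test's F statistic. DESeq2 1.42.0 was an alternative. ICM ratios used log2 CPM with a prior count of 2 over shared genes, without a test. Replicates differed beyond sampling noise (chi-square per degree of freedom of 24.7 in WT, 37.6 in HMGB2 KD and 2.22 in ICM). The scripts were tested on simulated data. Intervals are exact Clopper-Pearson 95% intervals for counting error, and a count of 0 allows up to 3.

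Sequences were read from GRCh37. Members and lists were chosen with earlier results of these data known. Named were all members, HMGB2, HDAC9 transcripts with at least 1 TPM, the leading transcript of each other member, up to 4 called genes of each partner list and comparison, and the 5 genes nearest to HDAC9. Protein sequences were not used here.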

Additional observations from a re-analysis of the deposited data

Results flagged for a closer look

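The old to young log2 ratio of HDAC3, after TMM scaling, was -0.027 in I79 (95% counting interval -0.16 to 0.10) and 0.20 in I10 (0.09 to 0.32), so the estimates had opposite signs in the isolates. For HDAC7 the signs were the other way round, with -0.17 in I79 (-0.28 to -0.06) and 0.045 in I10 (-0.06 to 0.15). For each gene 1 of the intervals spans 0, so opposite movement is not shown, and with 1 table per group and isolate the difference was not tested. Against library totals both genes had ratios under 0 in both isolates (-0.19 and -0.05 for HDAC3, -0.33 and -0.21 for HDAC7), since TMM scaling shifted old to young ratios by 0.16 in I79 and 0.26 in I10.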

How the results depend on the processing

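In the knockdown comparison 797 genes were called, and the count was 1243 with the replicate number as a block, 944 with DESeq2 and 1175 without a filter. Without 1 library each, it ranged from 312 (without the second HMGB2 KD library) to 999, and members called ranged from 0 to 1. HDAC9 was the called member in the other 9 alternatives of this comparison, the block included. Same-numbered libraries correlated at 0.13 in their deviations from the group means, over 2 pairs, so the numbers were not taken to pair the samples. Among members not called, leaving out a library turned the sign of HDAC2 (range of log2 fold change over the 4 fits from -0.11 to 0.14), HDAC3 (-0.23 to 0.035) and HDAC11 (-0.11 to 0.47).

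In old against young 1415 genes were called, against 2159 with DESeq2, 4250 without a filter and 3847 at an adjusted p under 0.05, while HDAC4, HDAC5 and HDAC9 were the called members under all 7 alternatives with a test. The ratio without 1 isolate was -0.027 to 0.20 for HDAC3 and -0.17 to 0.045 for HDAC7. HDAC6 reversed to -0.45 with counts scaled from TPM and length (adjusted p 0.077 by edgeR). DESeq2 called 3783 transcripts where edgeR called 0, 10 of them of members. Members past 0.6 within I79 went from 5 to 3 with TMM factors. For ICM, HDAC9 reversed to -0.062 with WT libraries as the control. The short HDAC9 forms held 93.2% of TPM in I79 old against 82.4% of counts. The class I share of per-length levels in WT was 68.0% with the longest transcript against 64.6% with all exons. The causes were not tested. Alternatives for the HDAC7 exon and the HDAC9 starts were chosen after seeing the data: by TPM the exon's shares stayed within their intervals, and the main group of HDAC9 starts held 65.5% in I79 old and 67.4% in I10 old. HDAC9 in the young tables is limited by depth, with 8 and 20 counts.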
